A study of Homo sapiens with 2 samples.

Results

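The genes described here are 10 SR splicing factor genes: SRSF1, SRSF2, SRSF3, SRSF4, SRSF5, SRSF6, SRSF7, SRSF10, SRSF11 and TRA2B, out of 20098 protein-coding genes on chromosomes 1 to 22 and X. They were chosen by family, and the family was picked on the MYBL2 peaks of 1 of its members, since many peaks lie over the SRSF6 locus. The number of peaks at SRSF6 and the share of SRSF6 under peaks are therefore descriptions and support nothing. The other 9 genes come from the same peak list, so their values are given as descriptions too, without a test.

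The peaks come from chromatin immunoprecipitation followed by sequencing (ChIP-seq) in A673, an established Ewing sarcoma cell line grown without further treatment. One library was made with a monoclonal rabbit antibody against MYBL2, which by the study's methods recognises the phosphorylated protein. The control was an input library, meaning sheared chromatin that was not immunoprecipitated. Each group had 1 library, so no value has a replicate error, and ChIP and input were not tested against each other here. The whole list held 66954 peaks over 34.9 Mb of the hg19 genome, with a median width of 319 bp. MYBL2 (B-MYB) is a DNA-binding transcription factor of the MYB family that drives cell cycle genes in proliferating cells.

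SR proteins bind pre-mRNA through RNA recognition motifs and recruit the spliceosome through a tail rich in arginine and serine. They decide which exons are kept, and several of them carry mRNA out of the nucleus. Many SR genes also control their own level: excess protein promotes splicing of a so-called poison exon, or of an intron in the 3′ untranslated region (UTR), and the resulting transcript is destroyed by nonsense-mediated decay.

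A peak was assigned to a gene when it overlapped the gene or the 1000 bp either side of any of its transcription start sites (TSSs). A promoter peak touched such a window and a body peak did not. Since many SR genes have internal TSSs in the GENCODE annotation, peaks were also divided by the window of the canonical transcript alone. Peak height is given as the fold enrichment of the authors, a ratio of the ChIP fragments at the summit to the local background from the input. The number of ChIP fragments behind each height, the pileup, was recovered from the deposited values. Intervals in brackets are exact Poisson intervals at 95% of that pileup, which cover counting error in the ChIP library only.

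The reference sequence in front of the genes is shown first, because the tallest peaks lie over or beside it. The tallest summit lay past the canonical TSS in 7 genes, at +33 to +210 bp, and before it in SRSF6, SRSF10 and SRSF11. Each stretch is the exon-free sequence nearest the summit of the tallest promoter peak, from the GRCh37 assembly, read 5′ to 3′ on the strand of the gene. Capitals mark matches to 5 motifs sought on both strands: MYB sites (TAACNG or CAACNG), the cell cycle homology region or CHR (TTTGAA or TTCGAA), boxes of the letters CCAAT, E2F sites (TTTCCCGC, TTTGGCGC, TTTGCCGC or TTTCGCGC) and an ETS core (CCGGAAGT). SRSF6 lies at chr20:42086413-42086532 (+), SRSF3 at chr6:36562010-36562129 (+), SRSF4 at chr1:29508413-29508532 (−), SRSF11 at chr1:70686933-70687052 (+), TRA2B at chr3:185655892-185656011 (−) and SRSF7 at chr2:38978637-38978675 (−).
SRSF6: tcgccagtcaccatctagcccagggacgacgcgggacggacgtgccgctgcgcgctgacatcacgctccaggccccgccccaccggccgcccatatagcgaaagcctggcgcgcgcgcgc
SRSF3: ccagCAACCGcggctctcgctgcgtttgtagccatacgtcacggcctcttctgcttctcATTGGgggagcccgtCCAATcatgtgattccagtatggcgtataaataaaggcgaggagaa
SRSF4: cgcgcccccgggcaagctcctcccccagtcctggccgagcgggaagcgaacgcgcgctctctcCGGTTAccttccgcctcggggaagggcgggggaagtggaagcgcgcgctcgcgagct
SRSF11: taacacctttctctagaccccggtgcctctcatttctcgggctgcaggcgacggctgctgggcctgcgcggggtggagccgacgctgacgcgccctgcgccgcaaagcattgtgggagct
TRA2B: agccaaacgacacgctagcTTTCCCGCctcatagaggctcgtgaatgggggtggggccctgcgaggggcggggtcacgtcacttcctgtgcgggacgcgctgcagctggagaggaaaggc
SRSF7: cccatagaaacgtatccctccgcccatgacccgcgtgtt

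The SRSF6 stretch runs from 123 to 4 bp before the canonical TSS, holds the summit of the SRSF6 promoter peak at 19 bp before the TSS, and contains none of the motifs. Its GC content was 73.3%. The SRSF3 stretch carries a MYB site and a pair of CCAAT boxes, SRSF4 a MYB site and TRA2B an E2F site. The stretches of SRSF7 and SRSF11 have no match, nor had those of SRSF2 (53 bp) and SRSF10 (34 bp), which are not shown, and SRSF1 and SRSF5 had no exon-free stretch. The SRSF7 stretch is all that separates the first exons of SRSF7 and GEMIN6, which are transcribed in opposite directions. In the 120 bp before the canonical TSS of 19819 protein-coding genes, a MYB site was present in 18.6%, a CHR in 4.49%, a CCAAT box in 23.4%, an E2F site in 1.82% and an ETS core in 4.16%. The stretches shown are not that same window, since they begin as far out as −209 bp in TRA2B and −129 bp in SRSF3, and the E2F site of TRA2B and the MYB site of SRSF3 lie in their outer ends.

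Every SR gene had a promoter peak, and peaks continued along the gene in most of them. In all, 72 peaks were assigned to the 10 genes, 31 at a promoter and 41 in the body. A promoter peak was present at 10 of 10 genes, against 59.4% of all protein-coding genes. A body peak was present at 7 of 10 genes, against 38% of all genes, and SRSF2, SRSF5 and TRA2B had none. SRSF2 and TRA2B are covered almost end to end by peaks that begin at a promoter, and in SRSF5 each peak touched a TSS window. With the canonical TSS alone, 9 of 10 genes had a peak outside the promoter window, against 43.7% of all genes, and SRSF2 was the exception.

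**Figure D1:**
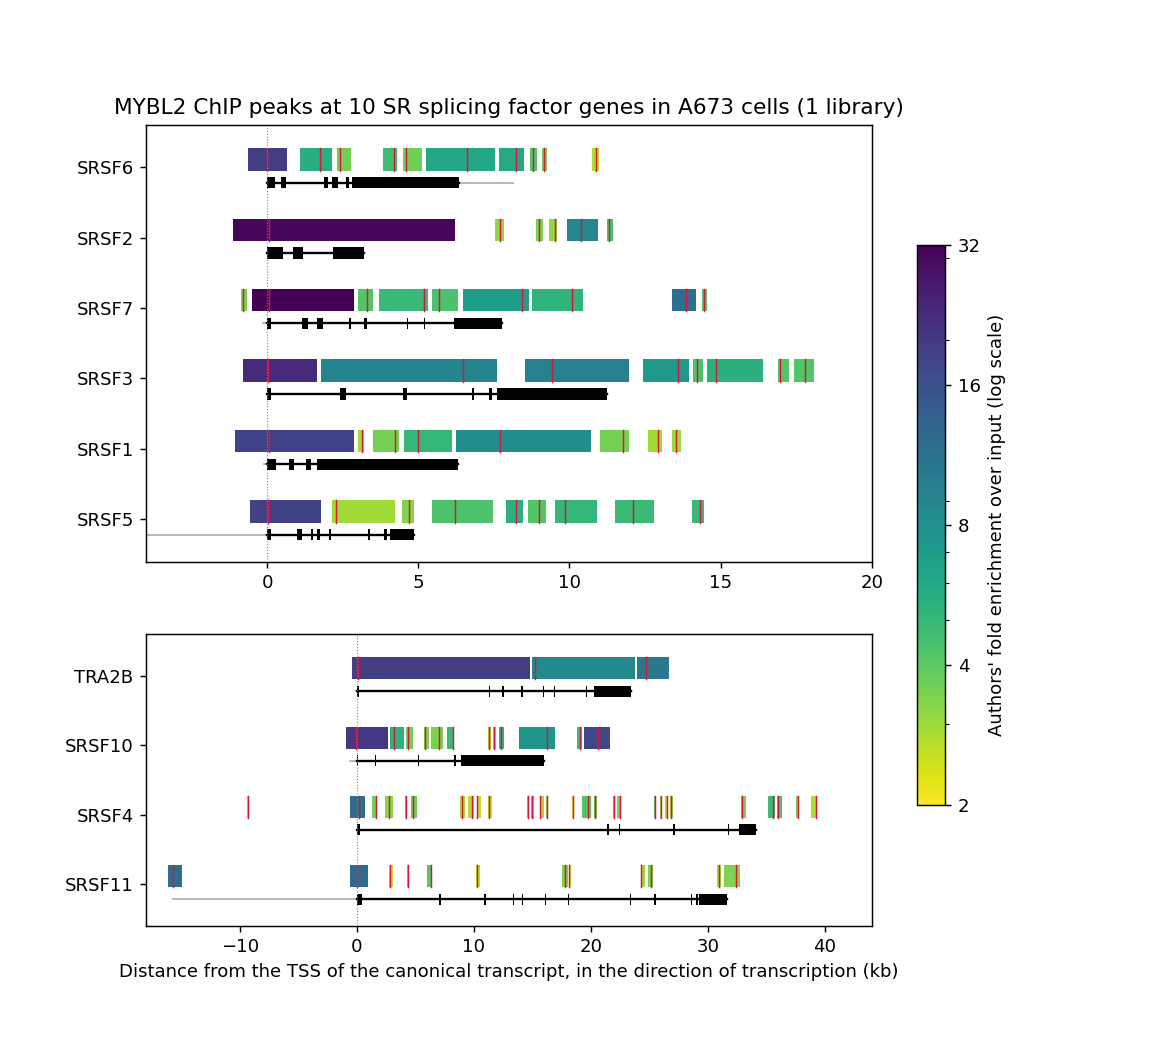
Peaks (coloured boxes) along the 10 SR genes, plotted by distance in kb from the TSS of the canonical transcript in the direction of transcription, with summits as thin vertical lines and colour for the authors' fold enrichment on a log scale. Black bars are exons of the canonical transcript, joined by a black line over its introns, and grey lines are the rest of the gene. Boxes fill SRSF2 and TRA2B, stand apart in SRSF4 and SRSF11, and reach past the 3′ end in most genes.

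The tallest peak of each gene stood at its TSS, apart from the rest of the gene. Divided by the canonical window, the 11 promoter peaks had a median fold enrichment of 19.5 and a range of 3.49 to 31.9. The other 61 peaks had a median of 3.56 and a range of 2.46 to 11.9. SRSF4 gave 22 of these and SRSF11 gave 11, so the pooled median rests largely on low peaks of these genes. By gene, the median outside the canonical promoter ran from 3.15 at SRSF5 to 9.27 at SRSF3. The median pileup was 101 fragments at the canonical promoters and 23 elsewhere. When the windows of all annotated TSSs counted as promoter, the medians were 4.94 for promoter peaks and 3.53 for body peaks, because internal TSSs drew low peaks within the genes into the promoter class. Of the 9 genes with peaks in both places, 8 had a promoter peak whose interval lay wholly above that of the tallest other peak. The same held for 45.5% of 6910 protein-coding genes with peaks in both places. Among the SR genes the exception was SRSF11, whose tallest other peak, of 11.9, lies at an upstream TSS and is shared with the LRRC40 promoter.

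SRSF6 encodes an SR protein that regulates alternative exons, and its own pre-mRNA has a poison exon. The gene lies at chr20:42086533-42094686 on the plus strand, spans 8154 bp and had 7 peaks, which covered 73.9% of it. The promoter peak had a fold enrichment of 19.5 [15.7 to 24.1] from 86 fragments [68.8 to 106] over a background of 3.45. Counted from the canonical TSS, the next summit stood at 1742 bp with a fold enrichment of 5.61, followed by 3.64 at 2403 bp, 4.68 at 4193 bp and 3.64 at 4588 bp. The peak at 6608 bp, 261 bp past the canonical 3′ end, reached 6.06 from 39 fragments, and the peak at 8240 bp reached 6.00 from 33 fragments. The SRSF6 promoter was thus 3.22 times as high as the tallest other peak, and the intervals of the 6 other peaks overlapped each other, from 3.64 [2.42 to 5.27] for the lowest to 6.06 [4.36 to 8.23] for the tallest.

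The last SRSF6 peak inside the rule, at 6.00, was followed just outside it by peaks of 4.24 and 3.66 with overlapping intervals. Among 2951 other protein-coding genes within a factor of 1.5 of the length of SRSF6, 69 were covered at least as fully and 108 had at least as many peaks. The median of those genes was 2.40% covered with 1 peak. The most fully covered genes of that length were BARHL2, MYC, RABGGTB and RPL37, each at 100% under a single peak, and KLF6 at 98.88%. The cover of these 5 genes came from 1 or 2 broad peaks each and that of SRSF6 from 7. A readthrough gene in the annotation shares the SRSF6 promoter and runs on past it, so peaks past the 3′ end of SRSF6 also lie in that gene.

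SRSF6 stood in a stretch with few other peaks. In windows of 50 kb, 10 summits fell in the window centred on the SRSF6 TSS, 0 in each of the 4 windows before it, and 1, 0, 1 and 4 in the windows after it. MYBL2 itself, the gene of the immunoprecipitated protein, lies 201 kb further along the same chromosome and had 5 peaks over 5.05% of its length.

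By share of the canonical transcript, SRSF1, SRSF2, SRSF3, SRSF5, SRSF7 and TRA2B were covered more fully than SRSF6, of which 68.2% was covered. SRSF1, one of the founding SR proteins and an oncoprotein when in excess, lies at chr17:56078280-56084707 on the minus strand. Its promoter peak was 3941 bp wide with a fold enrichment of 18.5 [15.1 to 22.4], and its next tallest peak reached 8.18 [6.10 to 10.8] with a summit 1371 bp past the 3′ end. Peaks covered 88.3% of the canonical transcript, and the low peaks of the 3′ UTR stood at 2.84, 3.58 and 5.08.

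SRSF2, an SR protein recurrently mutated in myeloid neoplasia, lies at chr17:74730197-74733415 on the minus strand. A single peak of 7329 bp covered it from end to end, the 79th widest of the list. Its fold enrichment was 30.4 [25.8 to 35.6] from 155 fragments, with a summit 63 bp past the TSS. The same peak touched the TSSs of METTL23 and MFSD11, so these promoters cannot be told apart in it.

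SRSF3 and SRSF7 are closely related, small SR proteins that serve as adaptors for mRNA export. SRSF3 (chr6:36562130-36573377, plus strand) had 3 broad peaks, a promoter peak of 22.9 [18.7 to 27.8] from 101 fragments and a pair of 9.11 and 9.44 from 41 fragments each. SRSF7 (chr2:38970741-38978636, minus strand) had the tallest promoter peak of the family, 31.9 [26.9 to 37.6] from 141 fragments, which is shared with GEMIN6. A second peak in the SRSF7 promoter window, with its summit at −796 bp from the TSS, stood at 3.49, and peaks along the gene reached 6.75. Cover of the canonical transcript was 90.8% in SRSF3 and 92.1% in SRSF7.

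SRSF5 is annotated over 45106 bp at chr14:70193617-70238722, because of a transcript that starts far upstream and had no peak at its start. Its canonical transcript is 4864 bp long and was 87.5% covered. The promoter peak stood at 18.8 [15.1 to 23.1] from 88 fragments, and the 2 peaks that covered the rest of the transcript were low, at 2.95 and 3.35.

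SRSF10 and TRA2B are SR-like proteins, the former a splicing repressor when dephosphorylated and the latter an activator of exons with purine-rich enhancers. SRSF10 (chr1:24290837-24307417, minus strand) had 10 peaks over 59.2% of the canonical transcript. Its promoter peak stood at 20.5 [17.4 to 23.9] from 153 fragments and its tallest other peak at 7.45 from 69 fragments, with a summit 278 bp past the 3′ end. TRA2B (chr3:185632346-185655891, minus strand) lay under 2 peaks of 15231 and 8804 bp, the 7th and 46th widest of 66954. These covered 99.4% of 23457 bp, a share reached or passed by few genes of that length (percentile 99.95). Fold enrichment was 19.6 [16.1 to 23.5] in the peak over the TSS and 8.72 [6.52 to 11.4] in the peak over the 3′ part.

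SRSF4 and SRSF11 have the longest canonical transcripts of the 10, and their peaks were scattered. SRSF4 (chr1:29474255-29508412, minus strand) had 23 peaks, the most of the family, which covered 22.98% of 34158 bp. The 22 peaks outside the promoter had 17 to 26 fragments each and a fold enrichment of 2.46 to 4.35, against 12.0 [9.30 to 15.3] at the promoter. SRSF11 (chr1:70671365-70718735, plus strand) had 12 peaks over 13.8% of its canonical transcript, and its low peaks stood between 2.52 and 4.07. Its promoters, at the canonical TSS and at −15685 bp from it beside LRRC40, had peaks of nearly the same height, 12.3 [9.67 to 15.4] and 11.9 [9.73 to 14.5]. The upstream peak also lay within 1000 bp of a TSS of LRRC40, so the promoters of SRSF11 and LRRC40 cannot be told apart in it.

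**Figure D2:**
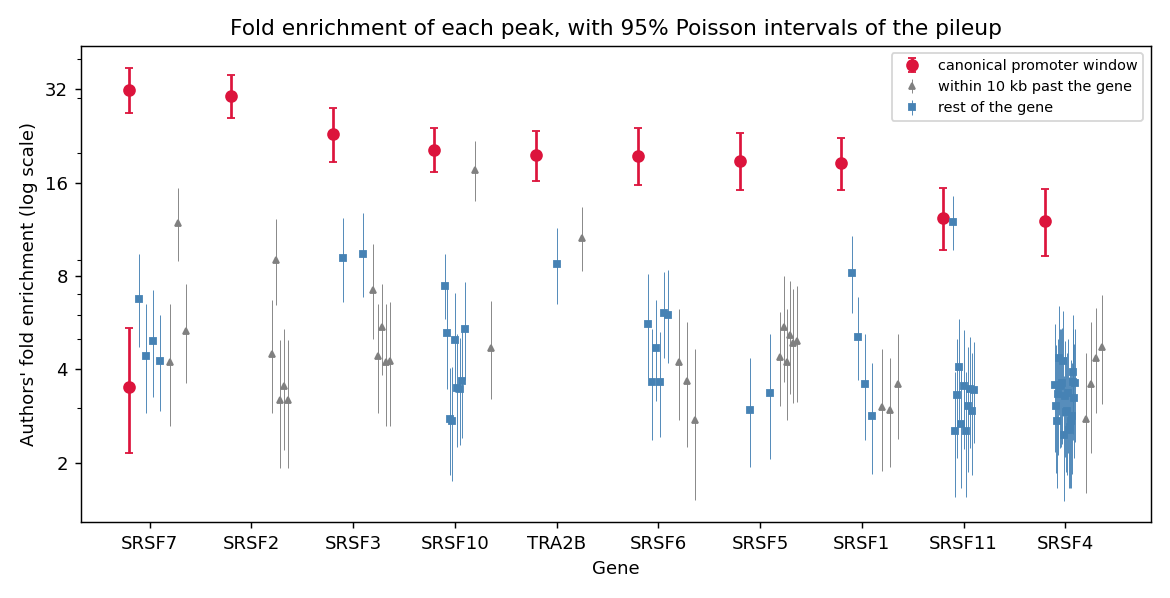
Authors' fold enrichment (log scale) of each peak at each of the 10 SR genes, with 95% Poisson intervals of the pileup in 1 library. Circles are peaks in the canonical promoter window, squares the other peaks of the gene and triangles peaks up to 10 kb past the gene. The interval of the tallest circle lies wholly above that of the tallest square in 8 of 9 genes, and SRSF7 also has a low circle at 3.49.

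From highest to lowest, the tallest promoter peaks were those of SRSF7 (31.9), SRSF2 (30.4), SRSF3 (22.9), SRSF10 (20.5), TRA2B (19.6), SRSF6 (19.5), SRSF5 (18.8), SRSF1 (18.5), SRSF11 (12.3) and SRSF4 (12.0). The intervals of each gene and the next in this order overlapped. SRSF7 and SRSF2 lay wholly above the 7 genes from SRSF10 down, and SRSF4 and SRSF11 wholly below the 6 genes from SRSF6 up. Among all protein-coding genes with a promoter peak, whose median was 8.67, the SR genes ranked from percentile 74.2 (SRSF4) to 98.5 (SRSF7).

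Most SR genes lay under peaks over the greater part of their transcript. At least 50% of the canonical transcript lay under peaks in 8 of 10 SR genes, against 3.29% of all protein-coding genes, and SRSF4 and SRSF11 were the exceptions. The median SR gene was 87.9% covered and the median protein-coding gene 0.724%. SR genes are short, with a median canonical length of 9501 bp against 22712.5 bp for all genes, and a promoter peak fills more of a short gene. Among genes within a factor of 1.5 of its own length, each SR gene stood between percentile 94.0 (SRSF11) and 99.95 (TRA2B), which is a description of genes picked from these peaks.

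**Figure D3:**
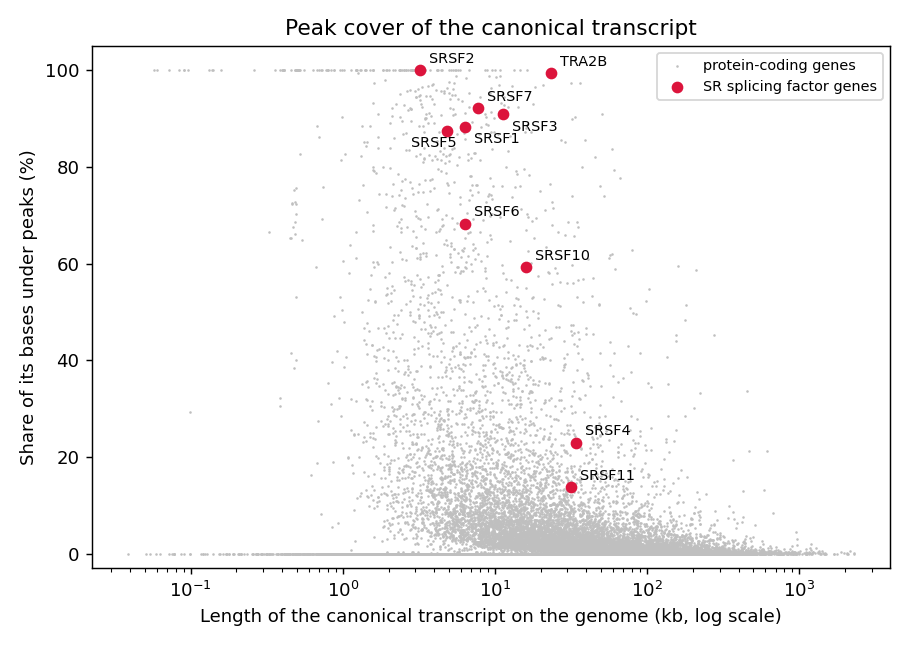
Share of the canonical transcript under peaks (%) against its length on the genome (kb, log scale), for all protein-coding genes (grey points) and the 10 SR genes (red, named). SRSF2 and TRA2B sit near 100%, SRSF4 and SRSF11 under 25% at over 30 kb, and most grey points lie near 0.

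Cover was high at both ends of the SR genes. When each canonical transcript was divided into 10 equal parts, the median SR gene was 100% covered in the first and in the last part and at least 75.5% covered in each between. Over all protein-coding genes the mean cover was 17.5% in the first part, 4.13% at its lowest and 5.89% in the last. The last part was more than 50% covered in 8 SR genes. The share of all protein-coding genes above that cut was not computed, so the count is a description only. SRSF6 had 0% in part 6, between its 2 groups of peaks, and SRSF10 had 0% in part 7.

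**Figure D4:**
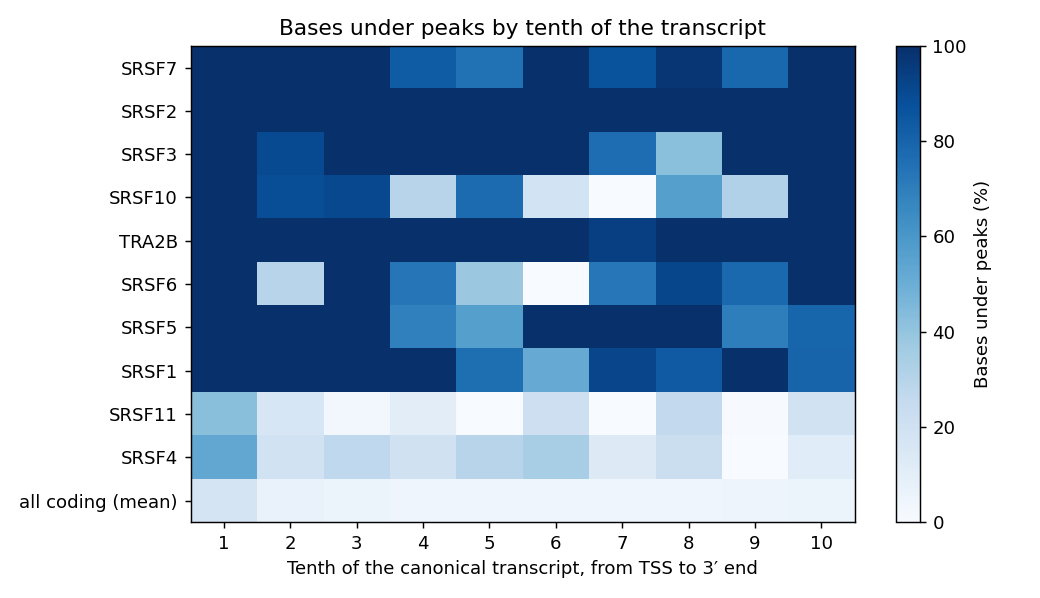
Share of bases under peaks (%, colour) in each of 10 equal parts of the canonical transcript from TSS to 3′ end, for each SR gene and as the mean of all protein-coding genes. The first and last parts are dark in 8 SR genes, SRSF4 and SRSF11 are pale after the first part, and the row of all genes is pale throughout with its highest value, 17.5%, in the first part.

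Outside the promoter, the tallest peak often reached the 3′ end. In 6 of 9 genes (SRSF1, SRSF3, SRSF6, SRSF7, SRSF10 and TRA2B) the tallest peak outside the canonical promoter window touched the 3′ end of the canonical transcript, against 9.47% of 8785 genes with such a peak. Touching took 1 bp of overlap, and the summits lay at different distances. They stood 261 bp past the 3′ end in SRSF6, 278 bp past it in SRSF10, 656 bp in SRSF7 and 1371 bp in SRSF1. In SRSF3 and TRA2B the summits were inside the transcript, at −1819 and −8267 bp from the 3′ end, and only the broad peak extended to it. By position in the canonical transcript, 39 of the 72 summits lay in introns, 11 in the 3′ UTR, 6 in the 5′ UTR, 5 in coding exons, 6 past the 3′ end and 5 before the TSS. The 72 include 23 summits of SRSF4 and 12 of SRSF11, the genes with the longest canonical transcripts. Exons were more fully covered than introns in 4 genes and introns more fully in 5. In SRSF6 the values were 64.6% for exons and 76.3% for introns.

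Exons of transcripts annotated for nonsense-mediated decay that overlap no canonical exon, poison exons among them, were mostly inside peaks. Whether other transcripts of the gene also hold these exons was not checked. There were 16 such exons in 8 genes, 13 touched a peak and 10 lay wholly within one. Of their 3409 bp, 84.4% were covered. The same shares for such exons of all protein-coding genes were not computed. The 268 bp exon of SRSF6, 1257 bp past the TSS, lay in the peak of 5.61. The 276 bp exon of TRA2B, 6162 bp past the TSS, lay in the broad peak of 19.6, which also holds the promoter. SRSF3 (98 and 456 bp), SRSF2 (104 bp), SRSF10 (363 bp) and all 3 such exons of SRSF7 were wholly covered. The exons of SRSF2 and SRSF10 and the 449 and 315 bp exons of SRSF7 also lay in the peak that holds the promoter. Of the 4 in SRSF4, 1 of 136 bp had no peak, and of the 3 in SRSF11, 2 had none and the third had 15 of 117 bp covered. Within a gene, the cover of these exons can be read beside that of the canonical introns. In SRSF2, SRSF3, SRSF7 and TRA2B the introns were themselves 91.7% to 100% covered. In SRSF6 and SRSF10 they were 76.3% and 74.6% covered. In SRSF4, 464 of 723 bp of these exons lay under peaks and 22.2% of the introns. In SRSF11 the order was the other way, with 15 of 288 bp of the exons and 12.0% of the introns.

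Peaks went on past the 3′ end. More bases were covered in the 10 kb past the gene than in the 10 kb before it in 10 of 10 SR genes, against 23.7% of all protein-coding genes. Genes without cover on either side counted among those without more cover past the gene, which lowers the share of all genes. The medians were 36.2% past and 6.01% before the SR genes, and 0% and 1.15% for all genes. SRSF1 had 61.0% past and 9.76% before, SRSF3 55.1% and 8.05%, and SRSF2 50% and 11.2%. SRSF5 had 62.5% past and 0% before, but its window before the gene adjoins the far upstream start without a peak. Measured from the ends of the canonical transcript, a choice made after seeing the data, SRSF5 had 62.5% past and 5.77% before and SRSF6 26.8% and 6.47%, and 10 of 10 genes again had more cover past the end. From the ends of the whole gene the difference in SRSF6 was small, with 9.94% past and 6.44% before, and in SRSF11 it was 11.2% and 4.62%. The 32 peaks wholly past the genes had a median fold enrichment of 4.37, with a range of 2.75 to 17.5. The highest, 17.5 from 80 fragments, had its summit 4608 bp past the 3′ end of SRSF10 and lay within 1000 bp of a TSS of PNRC2. Other annotated genes lie in the downstream window of 8 SR genes and in those cases their peaks cannot be told apart from the SR gene's. SRSF3 and TRA2B had no other protein-coding or lncRNA gene there, and 55.1% and 30.7% of the window was covered.

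**Figure D5:**
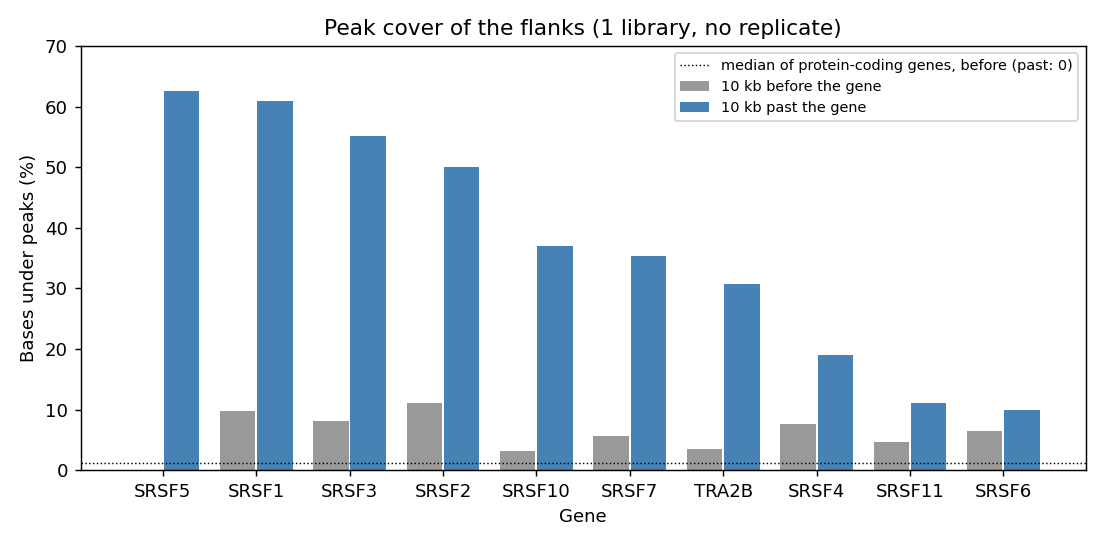
Share of bases under peaks (%) in the 10 kb before (grey bars) and the 10 kb past (blue bars) each SR gene in 1 library, without error bars since there is no replicate. The blue bar is the taller of the pair in all 10 genes, from 9.94% at SRSF6 to 62.5% at SRSF5, and the dotted line marks the median of all genes before the gene, 1.15%.

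In several genes the peaks followed each other almost without a break. Joined across gaps of at most 1000 bp, the run of peaks that started at the canonical promoter reached past the 3′ end in 6 of 10 genes. The share of all protein-coding genes with such a run was not computed, so the count is a description only. The run measured 27.1 kb at TRA2B, 18.9 kb at SRSF3, 14.8 kb at SRSF1, 13.4 kb at SRSF5, 11.3 kb at SRSF7 and 7.33 kb at SRSF2. It went furthest past the 3′ end at SRSF5, by 7.92 kb, and at SRSF1, by 7.36 kb. At SRSF6 the run stopped after 3.43 kb, and SRSF4, SRSF10 and SRSF11 also had a gap before their 3′ end.

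The local background was higher at the SR peaks than over all peaks of the list. Its median was 5.48 fragments at the 72 peaks, with a range of 3.45 to 8.40, against 4.25 over all peaks. The lowest value that the caller allowed, 3.45, was held by 5.56% of the SR peaks and 20.3% of all. Peaks of the canonical promoters had a median background of 4.41 and the others 5.60. By gene the median ran from 3.45 at SRSF3 to 6.27 at SRSF1, and it was 4.36 at the 32 peaks wholly past the genes. The part of the input in the cover of these genes was not tested. How strongly the genes are transcribed in these cells was not analysed here.

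MYB sites stood near some of the SR summits. Within 50 bp of the summit of the tallest promoter peak a MYB site was found in 3 of 10 genes (SRSF2, SRSF5 and SRSF10), and in 18.7% of 22943 promoter peaks of the list. A CHR, CCAAT box, E2F site or ETS core was found at 0 of 10 summits, where all promoter peaks had 6.41%, 10.4%, 1.14% and 1.77%. The other 62 SR peaks held a MYB site in 17, a CHR in 11 and a CCAAT box in 6. The 44011 peaks of the list not classed as promoter peaks held them in 22%, 11.4% and 14.4%. These sets are unlike, since the 62 include promoter peaks of the SR genes other than the tallest. A match in these windows is a match of letters and not a measured binding site.

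The sites at the tallest summits are shown with 12 bases on either side, on the strand of the gene and with the MYB letters in capitals, together with the site nearest a summit within SRSF6, whose stretch holds a second site. They lie at chr17:74733312-74733341 (−), chr14:70233849-70233878 (+), chr1:24306837-24306866 (−) and chr20:42090715-42090744 (+).
SRSF2: ccacgcggaaggCAACTGcctgagaggcgc
SRSF5: tgctaagtgcgtCAGTTGtggagtggcgta
SRSF10: cgcgagaagagtCGGTTGccgtagcagagc
SRSF6 at 4193 bp: aaagtCAGTTGcCAGTTAagttccacccag

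The SRSF10 site was centred on the summit, the SRSF2 site 24 bp downstream of it and the SRSF5 site 38 bp upstream. The second of the sites in the SRSF6 stretch was centred 1 bp from the summit of the peak of 4.68 in the 3′ UTR, and 3 MYB sites in all lay within 50 bp of that summit. The 19.5-fold promoter summit of SRSF6 had no MYB site within 50 bp.

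Other families of the splicing machinery were compared to see whether broad cover was shared. All 12 other SR and SR-related genes had a promoter peak, 2 were at least 50% covered, and their median cover was 21.4%. SRRM2, a large scaffold protein of nuclear speckles, was covered over 69.5% by 20 peaks, and TRA2A, the close relative of TRA2B, over 31.9% by 21 peaks. The 24 hnRNP genes, RNA-binding proteins that often oppose SR proteins, were nearest to the SR genes, with 16 at least 50% covered and a median of 73.6%. HNRNPC had 43 peaks over 79.4% of its transcript and PTBP2 had 53 over 17.4%. In the 12 core snRNP protein genes, whose products build the spliceosome, 1 was at least 50% covered and the median was 25.1%, with 18 peaks at SNRPD1 and 16 at SNRNP70. The 7 genes of SR protein kinases and the SR protein importer had promoter peaks throughout, but 0 were at least 50% covered and the median was 5.34%, with 27 peaks at SRPK2 and 11 at CLK3.

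The families also differ in length, with a median canonical length of 9501 bp for the SR genes, 13932 bp for the hnRNP genes, 13139 bp for the core snRNP genes, 19228.5 bp for the other SR genes and 24387 bp for the kinases and importer. The median tallest promoter peak was 19.6 for the SR genes, 13.1 for the other SR and SR-related genes, 15.3 for the hnRNP genes, 16.6 for the core snRNP genes and 8.73 for the kinases and importer, against 8.67 for all genes with a promoter peak. More cover past the gene than before it was found in 20 of 24 hnRNP genes, 7 of 12 other SR genes, 5 of 12 core snRNP genes and 2 of 7 kinase and importer genes. The lists were written from general knowledge, and the differences between them were not tested. No gene of these lists lacked a promoter peak.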

How the data were processed

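MYBL2 ChIP and input DNA of A673 cells were sequenced as 100 bp single-end reads. Per the labels the authors aligned to hg19, and the submitters' processing notes name Bowtie2 (2.1.10) and MACS2 (2.0.10). The list's name marks it as cleaned, by a filter not given in the sources used here. The deposited columns are the authors' fold enrichment (a ratio to the local background), −log10 p and −log10 q, a score derived from q, and the summit offset. All values are the authors', 1 list from 1 ChIP library against 1 input, with no replicates.

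From these, the whole-number pileup and the background were solved for 66954 of 66954 peaks (largest misfit 3.49e-05 in −log10 p, against 0.038 or more for the next whole number). The background floor of 3.45 corresponds to about 56800000 ChIP reads, taking 164 bp fragments and a genome of 2700000000 bp. PCR duplicates are not independent molecules, so intervals cover counting error only.

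Peaks were joined to GENCODE 44 genes lifted to GRCh37 (146299 TSSs of protein-coding genes), with at least 1 bp of overlap. The joining code was tested on simulated data. Values were computed with Python 3.11.15, NumPy 2.4.6, pandas 2.3.3 and SciPy 1.17.1. There was no test. Members, lists and motifs were chosen with earlier results of these data known. Named genes were all members, the 2 genes with most peaks of each other list, any gene there without a promoter peak, and the 5 most covered genes of like length to SRSF6. METTL23, MFSD11, GEMIN6, LRRC40, PNRC2 and MYBL2 were named after their positions were seen.

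Alternatives were peaks with −log10 q or fold enrichment of at least 5, a promoter window of 500 bp, the summit alone, the canonical or protein-coding TSSs alone, the canonical span, merging within 100 bp and motif windows of 100 bp. Their use for the 50% cover and for the flanks, and flanks of 5 kb or from the canonical ends, were chosen after seeing the data. A peak list does not measure expression, so the cell line label was not checked.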

Additional observations from a re-analysis of the deposited data

How the results depend on the processing

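No paired analysis was possible because only 1 ChIP and 1 input library exist and no test was made. With peaks of −log10 q of at least 5, the 10 genes kept 43 of 72 peaks, and with a fold enrichment of at least 5 they kept 23, of which 4 at SRSF6. The share of SRSF6 covered fell from 73.9% to 55.0% at that fold enrichment, and it was 68.2% over the canonical transcript. At the same limit the number of genes at least 50% covered fell from 8 to 5. The difference in median fold enrichment between body and promoter peaks, −1.41 with all TSSs, kept its sign and was −6.11 with −log10 q of at least 5, −12.1 with fold enrichment of at least 5, −5.21 with windows of 500 bp, −16.0 with the canonical TSS and −15.3 with the TSSs of protein-coding transcripts. With motif windows of 100 bp, the tallest promoter peaks held a MYB site in 5 genes and a CCAAT box, an E2F site and an ETS core in 1 each. Over all promoter peaks of the list, such windows held them in 33.8%, 20.7%, 2.21% and 3.33%, in that order. The number of genes with more cover past than before the gene was 9 at the limit on −log10 q and 7 at that on fold enrichment. For the 50% cover and for the flanks, the shares of all protein-coding genes at these limits were not computed. The counts of 9 and 7 are among 47 recomputed values that stayed within 1.5 times or their counting interval. Another 15 values moved further. Some of the 47 could not change, since the cover of SRSF6 does not depend on the promoter window or the TSSs used. The low peaks of SRSF4 had 17 to 26 fragments and those of SRSF11 18 to 28, which limits how finely their bodies can be read.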
